A study of Mus musculus with 86 samples.

Results

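The 10 genes Sod1, Vcp, Optn, Tbk1, Sqstm1, Ubqln2, Grn, Tmem106b, Hdac6 and Atg7 were taken by name, as mouse genes of protein quality control and the lysosome that are linked to amyotrophic lateral sclerosis (ALS) or frontotemporal dementia (FTD) or act beside such genes. They are 10 of 53664 genes listed for the CAD and N2A cells and of 52631 listed for the CAD transgene cells. RNA was measured by poly(A) RNA-seq in soma and neurite fractions of mouse neuronal lines, in 36 libraries that form 12 groups of 3. CAD cells are a catecholaminergic line from mouse brain and N2A cells a mouse neuroblastoma line. In the conditional knockout experiments, both lines carried inactivated endogenous alleles of Tardbp, the gene of TDP-43, and 1 copy of an HA-tagged TDP-43 transgene that doxycycline turns off. These cells came from single-cell clones. Without doxycycline they are called wild type, although all of their TDP-43 comes from the transgene, and after doxycycline at 2 µg/mL for 48 h, as the labels give it, they are called knockout. The study's methods give another concentration. Doxycycline was given to every knockout library and to no wild-type library, so an effect of the drug and of TDP-43 loss cannot be told apart. In the CAD transgene experiment the cells kept endogenous alleles of TDP-43, which the study describes as turned down once the transgene is on, and were induced with doxycycline, in both groups, to express 1 copy of HA-tagged wild-type TDP-43 or of TDP-43 with the ALS-linked Q331K change. The cells grew on porous membranes, somata were scraped from the top, and neurites were lysed from below. The labels do not say that the 3 libraries of a group came from separate cultures, so p-values measure the spread between these libraries.

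TDP-43 is an RNA-binding protein that binds GU-rich sequence, regulates splicing and stability of its targets, and is lost from the nucleus in most cases of ALS. The members act along the routes by which a neuron removes damaged protein. Ubiquitinated cargo is extracted by the ATPase VCP or carried by the shuttle factor ubiquilin 2, is gathered for autophagy by the receptors p62 (Sqstm1) and optineurin (Optn), which the kinase TBK1 phosphorylates, and is moved along microtubules with the help of HDAC6. ATG7 is the E1-like enzyme that activates LC3 for its lipidation as autophagosomes are built, and progranulin (Grn) and TMEM106B act in the lysosome where the cargo is degraded. SOD1, the cytosolic superoxide dismutase, is the client protein of the group, since its mutant forms misfold in familial ALS.

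In the mouse genome (GRCm38), Grn (ENSMUSG00000034708) spans chr11:102430315-102437048 on the plus strand and Atg7 (ENSMUSG00000030314) chr6:114643097-114860614 on the plus strand. Sqstm1 lies at chr11:50199366-50210827, Optn at chr2:5020642-5064051, Tbk1 at chr10:121546455-121586787 and Vcp at chr4:42979963-43000507, all on the minus strand. Sod1 lies at chr16:90220754-90226329, Tmem106b at chr6:13069759-13089269 and Ubqln2 at chrX:153498227-153501570 on the plus strand, and Hdac6 at chrX:7930120-7947889 on the minus strand.

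Since TDP-43 prefers GU repeats, matches to 3 motifs were counted on the RNA strand of each member's longest 3′ UTR in the annotation: GTGTG, then TGTGT, and last GTATG. Overlapping matches each counted. Grn had the densest 3′ UTR of the members, with 11 matches in 337 bases, or 32.6 per kb. That was above 98.8% of the 13661 genes tested in CAD cells that had an annotated 3′ UTR, whose median was 4.61 per kb. Sod1 had 2 matches in only 72 bases, or 27.8 per kb, and Optn 7 matches in 709 bases, or 9.87 per kb. Vcp and Tmem106b followed at 7.07 and 7.08 per kb, Sqstm1 had 4.21, Atg7 3.14, Ubqln2 2.50 and Tbk1 1.47 per kb, and Hdac6 had no match in 349 bases. At least 1 match was present in 86.2% of all these 3′ UTRs. The windows below hold the most matches in at most 30 bases of the 3′ UTR, with the matched bases in capitals, and are given for the members that changed most, Grn and Atg7, for the next densest, Sod1 and Optn, and for Sqstm1, the member whose change differed between the lines (GRCm38, RNA strand, 5′ to 3′).
Grn, chr11:102436752-102436780, plus strand: tTGTGTGTGTGTGcgcGTGTGcGTGTGTt
Sod1, chr16:90226260-90226277, plus strand: attcccTGTGTGgtctga
Optn, chr2:5021044-5021064, minus strand: tcttgtTGTGTGTGTaattct
Sqstm1, chr11:50200663-50200680, minus strand: tgggaaTGTGTGatgcct
Atg7, chr6:114859440-114859457, plus strand: gcatgcTGTGTGccaccc
All 11 matches of Grn lay in this 1 window of 29 bases, whereas the windows of Sod1, Sqstm1 and Atg7 each held 2 and that of Optn 5. Over the 3′ UTR of the transcript with the highest mean level in all 36 libraries, the values differed only for Sqstm1, whose shorter form had 4.70 per kb. For Atg7 that was Atg7-201. Another protein-coding transcript, Atg7-210, ends at chr6:114859221 and lacks the Atg7 window above. A match is a description of these letters and was not tested as a binding site.

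The libraries held between 22726534 and 32895542 estimated counts in CAD and N2A cells, and between 9783050 and 15870647 in the transgene cells. Tardbp fell in the knockouts, by 2.52 on the log2 scale in CAD soma, 1.89 in CAD neurites, 1.78 in N2A soma and 1.41 in N2A neurites, and the Q331K and wild-type transgene cells differed by at most 0.10 in any Tardbp comparison. Of 8 neuronal markers, 6 averaged at least 1 TPM (Salmon's estimate scaled by transcript length and library total) in each fraction, with the neurofilament genes Nefl and Nefm below that, and their summed level was 423 to 2350 TPM. Th, the rate-limiting enzyme of catecholamine synthesis, averaged above 1 TPM in CAD soma but not in N2A cells. The 6 glial markers summed to at most 13.2 TPM and the 4 myeloid markers to at most 3.36 TPM. Nuclear RNAs summed to 97.9 to 653 TPM in soma and 25.2 to 85.2 TPM in neurites. The median gene was also lower in neurites on this scale, as given below. By the neurite over soma ratio defined below, 1 of 3 nuclear RNAs was called soma-enriched in wild-type CAD cells (edgeR, adjusted p below 0.01). In wild-type N2A cells 3 of 3 were, and in wild-type transgene cells 0 of the 2 tested.

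In CAD and N2A cells without doxycycline Sod1 and Sqstm1 had the highest mean TPM of the members, a scale per transcript length, and Hdac6 and Atg7 the lowest. In the transgene cells Sod1 was highest, and Sqstm1 and Vcp overlapped in all 4 groups. In CAD soma without doxycycline Sod1 had 535 ± 101 TPM (SD, n = 3), Sqstm1 440 ± 73.1 and Vcp 259 ± 44.4 TPM. Grn (50.1 ± 11.1), Ubqln2 (45.8 ± 9.78), Tmem106b (41.5 ± 12.1) and Tbk1 (41.2 ± 7.58 TPM) followed, and the libraries of each neighbouring pair in this run overlapped. Optn was lower at 22.7 ± 3.29 TPM, and Hdac6 (9.93 ± 1.83) and Atg7 (8.19 ± 1.83 TPM) overlapped each other at the bottom. In N2A soma the order was similar, but Grn stood at 157 ± 16.6 TPM and Ubqln2 at 99.6 ± 16.2 TPM, with Vcp at 180 ± 15.4 TPM, whose libraries overlapped those of Grn. In N2A neurites Sqstm1 averaged 408 ± 111 TPM, overlapping Sod1 at 483 ± 156 TPM, whereas in CAD neurites it averaged 161 ± 34.4 TPM and did not overlap Sod1 at 484 ± 130 TPM.

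Neurite enrichment was measured as the localization ratio (LR), the log2 ratio of neurite over soma CPM (counts scaled by library total) after adjustment by the trimmed mean of M-values (TMM), which sets the typical gene near 0. On the TPM scale the median gene was lower in neurites, at -1.57, -1.48 and -0.96 log2 units in wild-type CAD, wild-type N2A and wild-type transgene cells, so an LR is relative to the typical gene. LR values per library match soma and neurite libraries by replicate number, which was not taken as a true pairing. Their spread and overlap depend on that matching, whereas the fitted values do not use it. Sod1 was neurite-enriched and Grn soma-enriched in all 3 experiments (edgeR, adjusted p below 0.01).

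Sod1 had an LR of 1.51, 1.71 and 1.44 in the 3 wild-type CAD pairs of same-numbered libraries, 1.41, 1.40 and 1.11 in N2A cells and 1.17, 1.61 and 0.97 in the transgene cells. All were well above 0, and the fitted values were 1.55 ± 0.08 (SE, adjusted p = 1.85e-10), 1.31 ± 0.10 (adjusted p = 2.09e-08) and 1.25 ± 0.10 (adjusted p = 6.06e-08). Grn, the soma-enriched member, had LR values of -0.10, -0.45 and -0.61 in CAD, -0.90, -0.86 and -1.12 in N2A and -0.91, -0.70 and -0.57 in the transgene cells. Its fitted LR was -0.38 ± 0.09 in CAD (adjusted p = 0.00257), -0.96 ± 0.12 in N2A (adjusted p = 3.97e-06) and -0.73 ± 0.12 in the transgene cells (adjusted p = 0.000154). In CAD the call for Grn was lost without replicate 2 (adjusted p = 0.0485) or 3 (0.0606) of each group, and in the transgene cells without replicate 1 (0.0128). Sqstm1, the p62 receptor, was far more neurite-enriched in N2A cells, at 1.32, 1.19 and 1.08, than in CAD cells, at 0.38, 0.34 and 0.23, and the lines did not overlap. That difference between lines was not tested. Its fitted LR was 1.19 ± 0.12 in N2A (adjusted p = 3.03e-07) and 0.32 ± 0.07 in CAD (adjusted p = 0.00142), where the call was lost without replicate 1 (0.0240) or 2 (0.0425) and with no filter on low counts (0.0132).

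In N2A cells Vcp (0.62 ± 0.08, adjusted p = 8.58e-06) and Optn (0.54 ± 0.09, adjusted p = 5.30e-05) were also neurite-enriched and Hdac6 was soma-enriched (-0.46 ± 0.11, adjusted p = 0.00248), a call that Hdac6 lost without replicate 1 or 2 (adjusted p = 0.0213 and 0.0247). None of these passed in CAD or in the transgene cells, and the difference between experiments was not tested. Tbk1, Tmem106b and Atg7 did not pass in any of the 3 experiments, and lay between -0.24 and 0.12, although Tbk1 in N2A cells turned from 0.06 to -0.54 (adjusted p = 0.000229) with counts rescaled from TPM and to -0.18 with genes of at least 10 counts in every library. Ubqln2 also passed in none, with a mean LR of -0.16 in CAD, 0.31 in N2A and -0.18 in the transgene cells. In all, 2 members were called neurite-enriched and 1 soma-enriched in CAD, where 23.7% and 17.7% of 17343 genes were. In N2A cells 4 and 2 members were called, beside 32.5% and 26.6% of 17912 genes, and in the transgene cells 1 and 1, beside 14.9% and 12.6% of 13940 genes.

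**Figure D1:**
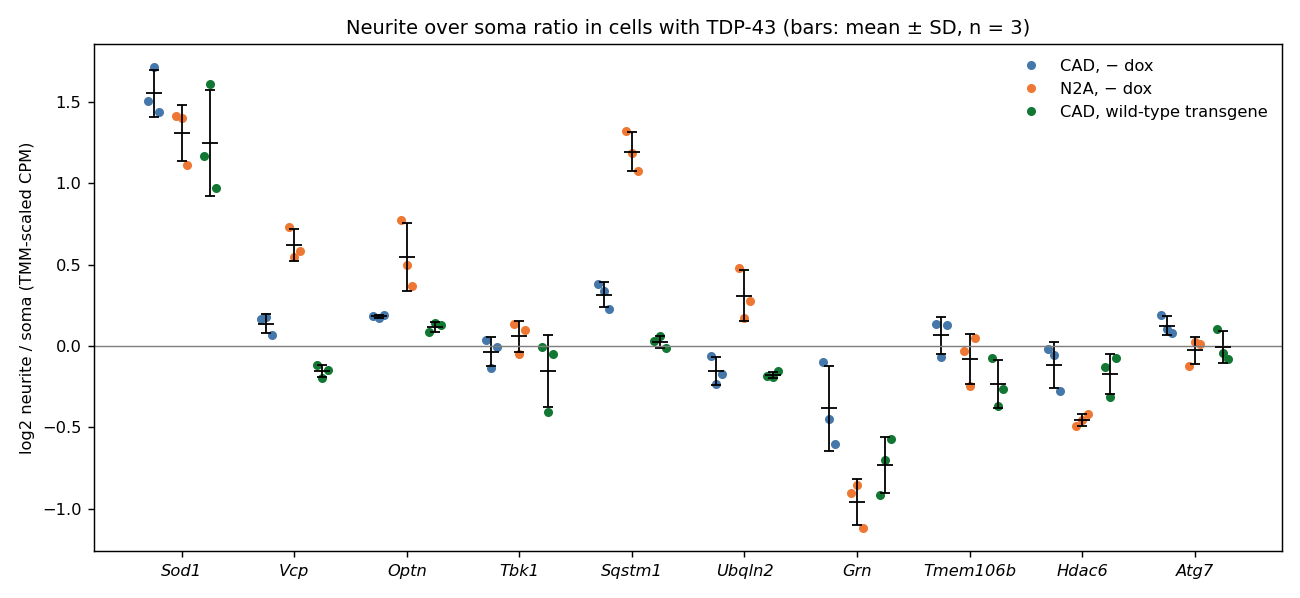
Localization ratio (log2 of neurite over soma TMM-scaled CPM) of the 10 members in wild-type CAD cells, wild-type N2A cells and CAD cells with the wild-type transgene. Points are the 3 same-numbered library pairs and bars the mean ± SD. Sod1 lies above 0.9 and Grn below 0 in each experiment, and Sqstm1 is above 1 only in N2A cells.

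After TDP-43 loss, Grn rose and Atg7 fell in both fractions of both lines. Tbk1, Sqstm1 and Hdac6 rose in CAD soma, Tbk1 and Sqstm1 also in CAD neurites, and Optn fell in N2A neurites. In CAD soma 4 members rose and 1 fell, beside 11.2% and 11.6% of all genes tested, and in CAD neurites 3 rose and 1 fell, beside 11.8% and 13.5%. In N2A soma 1 rose and 1 fell, beside 10.9% and 5.15%, and in N2A neurites 1 rose and 2 fell, beside 6.48% and 5.10%. The median difference of the 10 members was 0.01, -0.06, 0.19 and -0.08 on the log2 scale in these 4 comparisons, and that of all genes tested was 0.00, 0.00, -0.02 and -0.01. On the TPM scale, the median gene was shifted by -0.16 and -0.17 in knockout soma of CAD and N2A cells and by 0.15 and 0.16 in knockout neurites, so the changes are relative to the typical gene of each fraction. Whether libraries of 2 groups overlap is given below as a description only, since the share of all genes that separate was not counted.

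Grn, which encodes the secreted and lysosomal glycoprotein progranulin, showed the largest rise. In CAD soma it had 55.4, 56.9 and 67.3 CPM without doxycycline and 146, 154 and 148 CPM with it. In CAD neurites it went from 51.8, 41.6 and 44.2 CPM to 108, 121 and 131 CPM. Every knockout library was above every wild-type library, and the rise was 2.50-fold in soma (log2 1.32 ± 0.09 SE, adjusted p = 2.13e-08) and 2.61-fold in neurites (1.39 ± 0.09, adjusted p = 1.54e-08). In N2A soma Grn had 186, 180 and 196 CPM in wild type and 283, 316 and 362 CPM in knockout cells. N2A neurites had 99.7, 99.4 and 90.2 CPM in wild type and 217, 197 and 282 CPM in knockout cells. Again the groups did not overlap, and Grn rose 1.71-fold in soma (0.77 ± 0.12, adjusted p = 0.000240) and 2.41-fold in neurites (1.27 ± 0.12, adjusted p = 3.15e-06). The N2A soma call was lost without replicate 2 of each group (0.85, adjusted p = 0.0149).

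Tmem106b, a lysosomal membrane protein and risk gene for FTD with Grn mutations, had overlapping libraries in every comparison. Its difference was -0.24 ± 0.09 in CAD soma (adjusted p = 0.0531) and between -0.11 and 0.08 in the other 3 comparisons.

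Atg7, the E1-like enzyme of autophagosome formation, fell most of the members. Its levels in CAD soma were 12.4, 12.6 and 14.1 CPM in wild type and 9.15, 8.48 and 7.78 CPM in knockout cells. In CAD neurites they were 14.2, 13.5 and 14.8 CPM against 5.93, 6.72 and 5.32 CPM. The groups stood apart in both fractions, with a 1.54-fold fall in soma (-0.62 ± 0.10, adjusted p = 0.000102) and a 2.37-fold fall in neurites (-1.24 ± 0.10, adjusted p = 1.45e-07). In N2A soma Atg7 went from 12.6, 10.7 and 10.5 CPM to 8.75, 8.21 and 6.86 CPM, and in N2A neurites from 11.6, 10.9 and 10.6 CPM to 5.18, 5.63 and 6.04 CPM. Here too the groups did not overlap, and Atg7 fell 1.42-fold in soma (-0.51 ± 0.12, adjusted p = 0.00438) and 1.96-fold in neurites (-0.97 ± 0.12, adjusted p = 3.76e-05). The N2A calls depended on the count scale. With counts rescaled from TPM, which takes up changes in transcript length, the N2A differences were -0.04 in soma (adjusted p = 0.882) and -0.40 in neurites (adjusted p = 0.169), and the soma call was also lost without replicate 1, 2 or 3 (adjusted p = 0.0149, 0.120 and 0.0564).

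Sqstm1 and Optn, both cargo receptors of selective autophagy, were called in different comparisons. Sqstm1 in CAD soma had 515, 496 and 531 CPM in wild type and 574, 653 and 653 CPM in knockout cells, and in CAD neurites 670, 627 and 623 CPM against 877, 873 and 846 CPM. Neither pair of groups overlapped, and Sqstm1 rose by 0.29 ± 0.07 in soma (adjusted p = 0.00515) and 0.44 ± 0.07 in neurites (adjusted p = 0.000150). The soma call was lost without replicate 2 (0.23, adjusted p = 0.197) or 3 (0.28, adjusted p = 0.0564) and with no filter (0.26, adjusted p = 0.0612), and the neurite call without replicate 2 (0.41, adjusted p = 0.0185). In N2A cells Sqstm1 overlapped between groups, at 622 to 653 CPM against 616 to 852 CPM in soma and 1375 to 1550 CPM against 1172 to 1463 CPM in neurites.

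Optn was lower in all knockout libraries than in all wild-type libraries of the same line and fraction, but passed the threshold only in N2A neurites. There it fell from 54.6, 52.5 and 49.0 CPM to 39.6, 39.2 and 37.8 CPM (-0.42 ± 0.09, adjusted p = 0.00292), a call lost without replicate 2 (-0.39, adjusted p = 0.202) or 3 (-0.41, adjusted p = 0.0510) and with counts rescaled from TPM (-0.38, adjusted p = 0.0150). In CAD soma, CAD neurites and N2A soma Optn differed by -0.22, -0.23 and -0.30 (adjusted p = 0.0139, 0.0119 and 0.0190).

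Tbk1, the kinase that phosphorylates both receptors, rose in CAD cells. It had 48.9, 53.3 and 53.1 CPM in wild-type soma and 73.7, 77.3 and 76.5 CPM in knockout soma, and 50.0, 48.6 and 52.9 CPM against 80.6, 81.3 and 74.4 CPM in neurites. The groups were far apart, at 0.55 ± 0.06 in soma (adjusted p = 2.01e-06) and 0.64 ± 0.06 in neurites (adjusted p = 4.81e-07). In N2A cells Tbk1 differed by 0.18 ± 0.07 in soma (adjusted p = 0.0820), with overlapping libraries, and by 0.29 ± 0.07 in neurites (adjusted p = 0.0123), where all knockout libraries were higher.

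Hdac6, a cytoplasmic deacetylase that acts on tubulin and binds ubiquitin, was higher in all knockout libraries than in all wild-type libraries of both lines and fractions. It rose in CAD soma from 22.5, 20.9 and 25.3 CPM to 30.8, 30.5 and 31.7 CPM (0.44 ± 0.08, adjusted p = 0.000341), a call lost without replicate 2 (0.38, adjusted p = 0.0248). It did not pass in CAD neurites (0.17 ± 0.08, adjusted p = 0.125), N2A soma (0.27 ± 0.11, adjusted p = 0.0826) or N2A neurites (0.41 ± 0.11, adjusted p = 0.0198).

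Vcp, the segregase that unfolds ubiquitinated proteins, and Ubqln2, which carries them to the proteasome, did not pass the threshold in any of the 4 comparisons. Vcp differed by -0.10 in both CAD fractions, 0.17 in N2A soma and -0.21 in N2A neurites, and its neurite libraries were lower in all knockout than in all wild-type samples of both lines. Ubqln2 differed by -0.08 and -0.24 in CAD soma and neurites and by 0.37 and -0.12 in N2A soma and neurites, with adjusted p-values of 0.0314 or more, and its CAD neurite libraries did not overlap between groups. Sod1 overlapped between groups in every comparison and differed by at most 0.21.

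**Figure D2:**
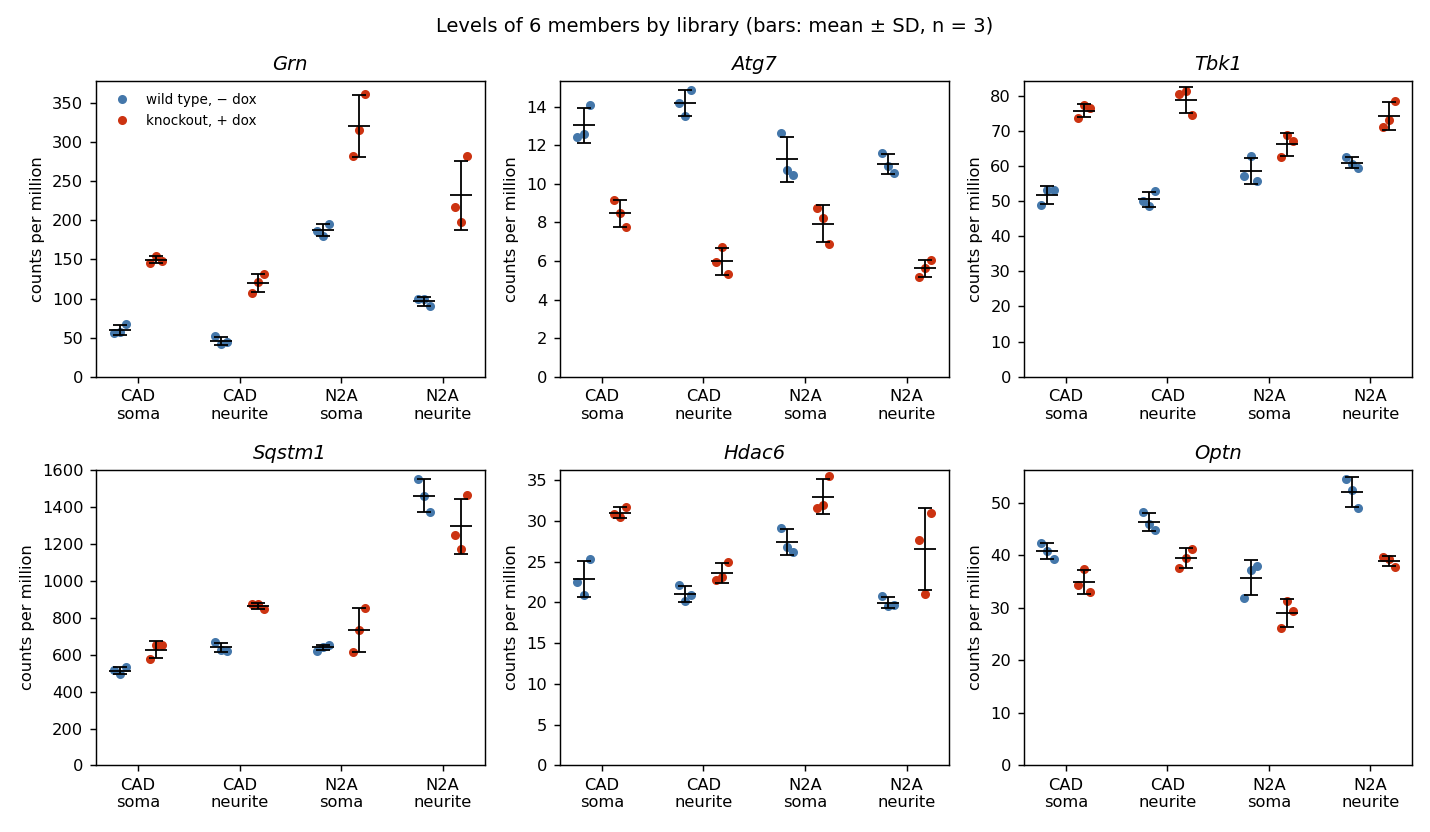
CPM (TMM-scaled, linear axis from 0) of 6 members in soma and neurites of CAD and N2A cells, with wild type (no doxycycline) in blue and knockout (doxycycline) in red. Points are libraries and bars the mean ± SD of 3. Grn is higher and Atg7 lower in every knockout library than in every wild-type library of the same line and fraction.

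**Figure D3:**
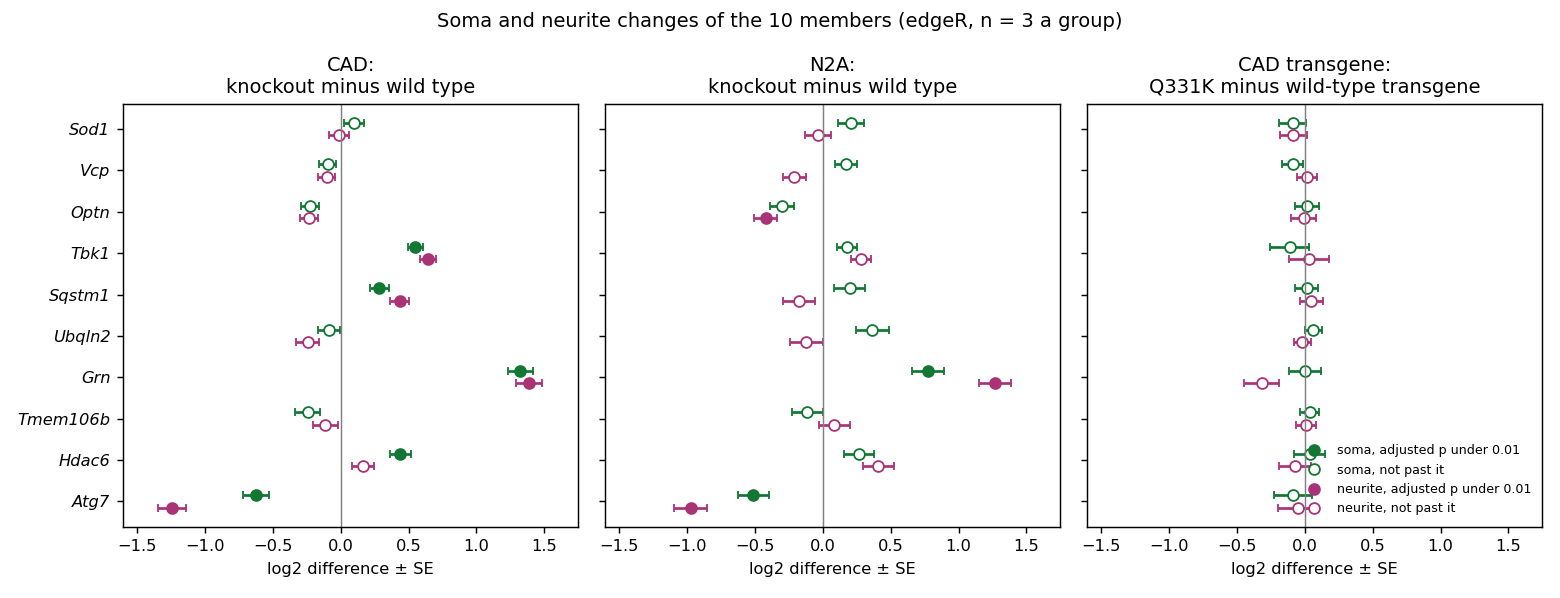
Log2 difference with SE of each member in soma and neurites for the 2 knockouts and for Q331K against the wild-type transgene, with filled points where the adjusted p was below 0.01. Grn and Atg7 are filled in all 4 knockout comparisons, and no point is filled for the transgenes.

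To ask whether localization itself moved, the LR change (knockout minus wild type) was tested as an interaction. By edgeR 0 of the 10 members passed in either line, where 0.225% of genes rose and 0.208% fell in CAD and 0.0893% and 0.0112% in N2A cells. By DESeq2 1 member passed in N2A cells, Vcp (-0.43, adjusted p = 0.00235), and none in CAD. DESeq2 called far more genes than edgeR, with 1653 of 17912 in N2A cells and 224 of 17343 in CAD. Thus 1 of 10 members in N2A cells is near the share of all genes that DESeq2 called. At an unadjusted p below 0.05, 1824 of 17343 genes in CAD and 5580 of 17912 in N2A cells differed.

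The values nearest the threshold in CAD were those of Atg7. Its LR was 0.19, 0.11 and 0.08 in wild type and -0.62, -0.33 and -0.54 in knockout CAD cells, so the groups did not overlap, and the edgeR change was -0.62 ± 0.14 (adjusted p = 0.0499). In N2A cells the groups of Atg7 did not overlap either, with a change of -0.46 ± 0.17 (adjusted p = 0.0806). Hdac6 changed its LR by -0.27 ± 0.11 in CAD (adjusted p = 0.395), from -0.02, -0.05 and -0.28 to -0.44, -0.40 and -0.35. In N2A cells Hdac6 overlapped between groups.

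For Grn, the LR change was 0.06 ± 0.13 in CAD (adjusted p = 0.911, and -0.13 without replicate 3) and 0.49 ± 0.17 in N2A cells (adjusted p = 0.0680), where LR went from -0.90, -0.86 and -1.12 to -0.38, -0.68 and -0.36. The difference between the lines, -0.40 ± 0.23, did not pass (adjusted p = 0.358). Vcp (-0.38 ± 0.12, adjusted p = 0.0540), Sqstm1 (-0.37 ± 0.16, adjusted p = 0.136) and Ubqln2 (-0.49 ± 0.17, adjusted p = 0.0720) had lower LR in all 3 knockout than in all 3 wild-type N2A pairs. In CAD the LR changes of Vcp, Sqstm1 and Ubqln2 were -0.01, 0.15 and -0.16, and Ubqln2 again had lower LR in all knockout pairs. Not every matching of soma and neurite libraries would keep these groups apart. That holds for Ubqln2 and Hdac6 in CAD, and for Sqstm1, Ubqln2, Atg7 and Grn in N2A cells.

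**Figure D4:**
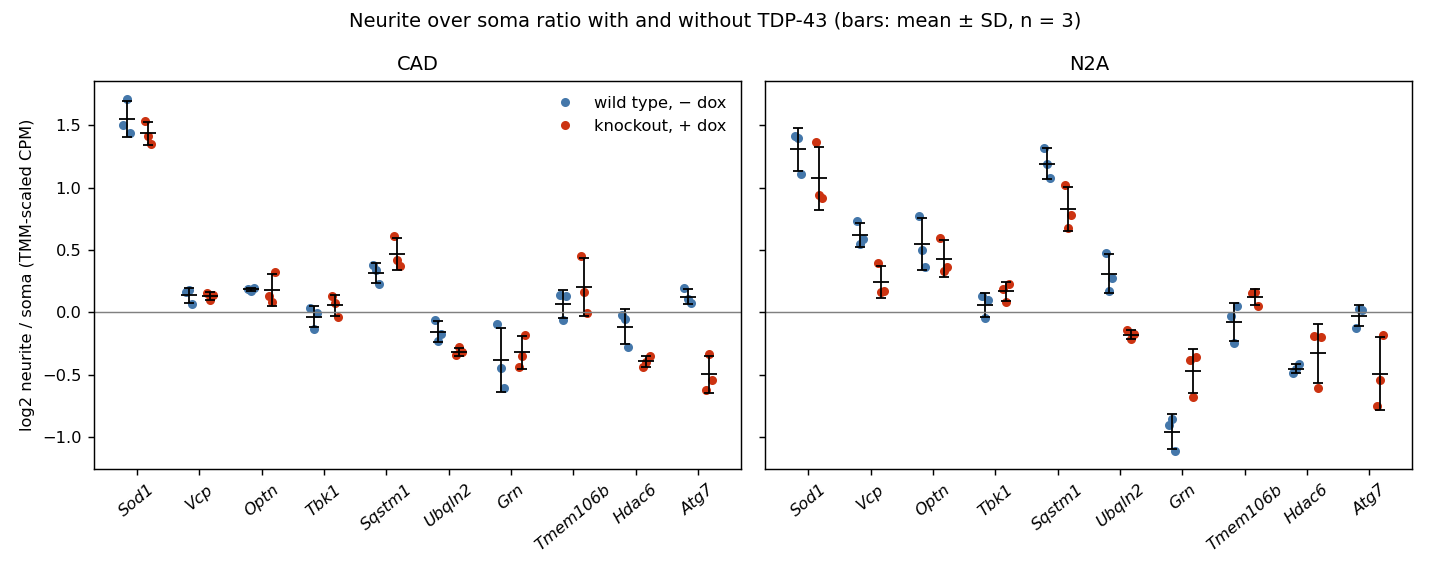
Localization ratio (log2 neurite over soma, TMM-scaled CPM) of the 10 members in wild-type and knockout CAD and N2A cells, as same-numbered library pairs with the mean ± SD of 3. Atg7 pairs of knockout cells lie below all wild-type pairs in both lines, and Grn pairs of knockout cells lie above all wild-type pairs only in N2A cells.

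The response to TDP-43 loss was compared between the lines as CAD minus N2A. Sqstm1 in neurites was the only member past the threshold in the 3 comparisons (soma, neurites and LR). It rose by 0.44 in CAD neurites and differed by -0.17 ± 0.12 in N2A neurites, and the difference was 0.56 ± 0.14 (adjusted p = 0.00871). The call was lost without replicate 1 (0.49, adjusted p = 0.0446) or 2 (0.47, adjusted p = 0.293). In neurites 2.94% of 19700 genes were higher and 6.23% lower in this comparison. None of the members passed in soma, where 2.64% and 7.87% of genes did, or in LR, where 0.102% and 0.102% did. By DESeq2 Tbk1 (0.35), Grn (0.53) and Vcp (-0.29) passed in soma and Tbk1 also in neurites (0.32). With edgeR the soma differences were 0.30, 0.47 and -0.35 (adjusted p = 0.0364, 0.0453 and 0.0202), and the neurite difference of Tbk1 was 0.30 (adjusted p = 0.0408). The shares of all genes above are those of edgeR. Those of DESeq2 are not given here, so its calls stand without a background.

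In CAD cells that kept the endogenous alleles, Q331K and wild-type transgenes were compared to ask what the ALS-linked change does. No gene passed by edgeR, so 0% of 13940 were higher or lower in soma, neurites or LR, with 995, 1372 and 605 genes at an unadjusted p below 0.05. DESeq2 called 0 genes in soma, 10 in neurites and 0 in LR, none of them a member. The members differed by -0.11 to 0.06 in soma, -0.31 to 0.05 in neurites and -0.32 to 0.14 in LR, with SEs of 0.06 to 0.20. The values farthest from 0 were those of Grn, at -0.32 ± 0.17 in LR (adjusted p = 0.999) and, in neurites, at 26.5, 32.7 and 27.3 CPM with the wild-type and 21.7, 22.2 and 25.7 CPM with the Q331K transgene (-0.31 ± 0.13, edgeR adjusted p = 0.444). The Q331K libraries were all below the wild-type ones in neurites and overlapped them in soma. Vcp (higher LR) and Ubqln2 (higher in soma, lower LR) were the other members whose Q331K values did not overlap those of the wild-type transgene, with differences of 0.10, 0.06 and -0.08. The LR separations rest on the matching by number. How many of all genes separate in this way was not counted, so these are not read as changes. Atg7, the other member that moved in all knockout comparisons, differed by -0.09 ± 0.14 in soma and -0.05 ± 0.15 in neurites. These libraries were shallower, with Atg7 at 7.47 to 10.4 CPM.

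Estimates of single transcripts were read as descriptions. The protein-coding Grn-201 took 85.4% of the TPM of Grn in wild-type and 90.5% in knockout CAD soma. It went from 43.0 ± 10.6 to 94.9 ± 12.8 TPM in CAD soma and from 133 ± 15.0 to 211 ± 27.7 TPM in N2A soma. Retained-intron transcripts of Grn took 10.7% ± 1.63 of its TPM in wild-type and 5.81% ± 0.36 in knockout CAD soma, and 11.5% ± 1.08 and 3.75% ± 0.72 in N2A soma. By estimated counts these shares were smaller, at 2.24% and 1.12% in CAD soma and 2.45% and 0.81% in N2A soma. For Tbk1, retained-intron transcripts made up 36.1% ± 3.83 of TPM in wild-type CAD soma against 14.6% ± 1.92 in neurites, and 47.6% ± 2.85 against 8.23% ± 4.08 in N2A cells. By estimated counts the Tbk1 shares were 8.11% and 2.53% in CAD and 12.7% and 1.49% in N2A cells. In knockout N2A cells the Tbk1 share of TPM was 34.3% ± 2.14 in soma and 19.5% ± 5.97 in neurites, lower and higher than in wild type with no overlap, and in knockout CAD cells it was 34.1% ± 5.48 and 16.7% ± 1.80, overlapping wild type.

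Atg7-201 and Atg7-210, both protein-coding, had the highest mean TPM of the Atg7 transcripts in wild-type CAD soma. In N2A soma they took only 27.6% and 20.6% of its TPM in wild type and 26.8% and 9.27% in knockout cells, with the rest in other transcripts. They share 17 exons and differ in the length of the first exon (54 bases in Atg7-201 and 24 in Atg7-210), in an exon of 121 bases near the start (GRCm38 chr6:114646937-114647057, in Atg7-210) and in the last exon, which is 1624 bases in Atg7-201 and 231 bases in Atg7-210. In CAD soma Atg7-210 was estimated at 2.08, 4.61 and 4.75 TPM in wild type and 0, 1.12 and 0.45 TPM in knockout cells, so no libraries overlapped. Atg7-201 in the same cells was estimated at 2.14, 2.38 and 2.79 TPM against 1.82, 1.99 and 2.03 TPM. In N2A soma Atg7-210 was at 0.78, 1.29 and 2.38 TPM against 0.38, 1.35 and 0 TPM, and the groups overlapped. By share of estimated counts Atg7-210 made up 32.5% to 53.0% of Atg7 in wild-type CAD soma and 0% to 24.7% in knockout CAD soma. In CAD neurites, where Atg7 fell more, these shares overlapped, at 48.4%, 35.1% and 45.3% in wild type against 41.2%, 57.0% and 22.2% in knockout cells. The same transcript was estimated at 0 in 1 soma library with the Q331K and 1 neurite library with the wild-type transgene, so these splits vary at this depth, and no test was made on them.

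**Figure D5:**
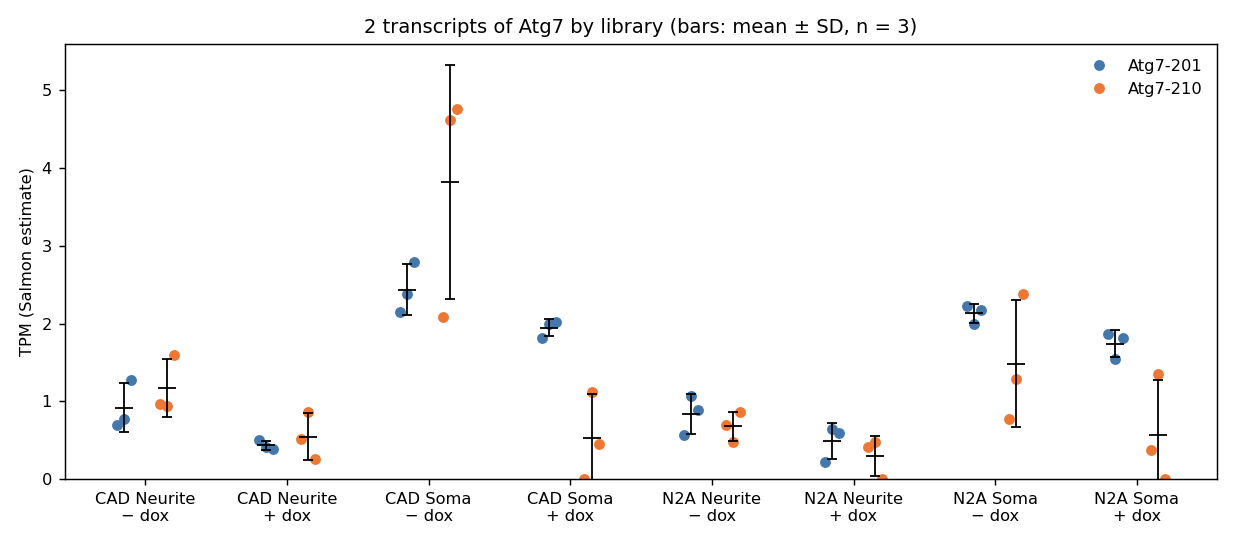
Estimated TPM of Atg7-201 (blue) and Atg7-210 (orange) by library in soma and neurites of CAD and N2A cells without and with doxycycline, with the mean ± SD of 3. In CAD soma Atg7-210 lies at 2.08 to 4.75 TPM without and 0 to 1.12 TPM with doxycycline.

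Genes around the members were read from lists of their pathways. Their counts stand beside the shares of all genes given above, which were 11.2% higher and 11.6% lower in CAD soma, 11.8% and 13.5% in CAD neurites, 10.9% and 5.15% in N2A soma and 6.48% and 5.10% in N2A neurites, and many of the smaller counts are near them. Many other lysosomal genes fell in CAD cells, where Grn rose. The list of lysosomal hydrolases and membrane proteins also held some other genes, such as those of the transcription factors Tfeb and Tfe3. Of its 46 genes tested, 28 fell and 2 rose in soma and 21 fell and 2 rose in neurites, with medians of -0.46 and -0.30. Glb1, the lysosomal beta-galactosidase, fell by 1.53 in soma and 1.98 in neurites, and Igf2r, the receptor that brings hydrolases to the lysosome, fell by 1.13 and 1.22. Manba, beta-mannosidase, rose by 0.83 and 1.10, and Slc38a9, the lysosomal arginine sensor, rose by 1.01 and 1.09. In N2A cells, of 47 tested, 5 rose and 4 fell in soma (median -0.12) and 13 rose and 1 fell in neurites (median 0.15). Slc38a9 rose by 1.06 in N2A soma and 1.62 in N2A neurites and Manba by 0.89 and 1.43. In wild-type cells 10 of 46 were soma-enriched and 4 neurite-enriched in CAD, 27 and 5 of 47 in N2A and 23 and 1 of 45 in the transgene cells, where 17.7%, 26.6% and 12.6% of all genes were soma-enriched. The CAD count is near that background. Of the 17 V-ATPase subunits, which acidify the lysosome, 0 rose and 2 fell in CAD soma, 3 and 2 in CAD neurites, 1 and 0 in N2A soma and 1 and 2 in N2A neurites.

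Of 32 genes of the autophagy core machinery other than Atg7, 4 rose and 2 fell in CAD soma, 6 and 5 in CAD neurites, 6 and 2 in N2A soma and 0 and 5 in N2A neurites. Gabarapl1, an LC3 relative that ATG7 activates, rose by 0.59 in CAD soma, 0.67 in CAD neurites and 0.60 in N2A soma, whereas Atg9a, the membrane-delivering scramblase, fell by 0.33, 0.41 and 0.54. Of 12 other autophagy receptors, 2 rose and 1 fell in CAD soma, 2 and 2 in CAD neurites, 0 and 3 in N2A soma and 1 and 3 in N2A neurites. Nbr1, which acts with p62, rose by 0.25 and 0.30 in CAD soma and neurites, and the mitophagy receptor Bnip3 fell by 1.50 in N2A soma and 2.10 in N2A neurites. Of 9 genes of TBK1 adaptors and signalling, 0 rose in any knockout comparison and 2, 3, 1 and 1 fell in CAD soma, CAD neurites, N2A soma and N2A neurites. The TBK1-binding protein Tbkbp1 fell by 0.58 in CAD soma and 0.63 in CAD neurites. Tmem173 (STING), which recruits TBK1, fell by 0.85 in CAD soma, 0.55 in CAD neurites and 0.55 in N2A soma.

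Of 25 VCP cofactors and ubiquilins, 2 rose and 2 fell in each CAD fraction, 1 and 1 in N2A soma and 0 and 2 in N2A neurites. Of 20 superoxide, peroxide and NRF2-target genes tested, 4 rose and 2 fell in CAD soma, 4 and 1 in CAD neurites, 6 and 1 in N2A soma and 1 and 3 in N2A neurites. Sod2, the mitochondrial dismutase, rose by 0.39 and 0.40 in CAD soma and neurites. As with Sod1, many of these genes were called neurite-enriched in wild-type cells, and none soma-enriched. The counts were 17 of 20 in CAD, 20 of 20 in N2A and 9 of 20 in the transgene cells. Of all genes, 23.7%, 32.5% and 14.9% were neurite-enriched. Of 8 other deacetylases and tubulin acetylation genes, 1 rose and 1 fell in CAD soma, 1 and 2 in CAD neurites, 3 and 0 in N2A soma and 2 and 0 in N2A neurites. Hdac11 rose by 0.69 in CAD soma, 0.66 in CAD neurites and 0.51 in N2A soma, and Hdac9 fell by 0.99 in CAD soma but rose by 0.89 in N2A soma. Of 17 other ALS and FTD genes, 8 rose and 4 fell in CAD soma, 7 and 5 in CAD neurites, 8 and 1 in N2A soma and 5 and 2 in N2A neurites. Wdr41, a partner of the C9orf72 protein, rose by 1.34 in CAD soma, 1.16 in CAD neurites and 0.91 in N2A soma. None of the genes of these lists passed in any LR change or in any Q331K comparison.

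Over the means of the 12 groups, which share their line and fraction, the gene most like each member in log2 CPM was Cox6c for Sod1 (Pearson r = 0.995), Ythdf2 for Vcp (0.984), Napb for Optn (0.965), Esr1 for Tbk1 (0.991), Mid1ip1 for Sqstm1 (0.991), Fam131b for Ubqln2 (0.993), Chrna7 for Grn (0.981), Atp1b3 for Tmem106b (0.988), Islr2 for Hdac6 (0.934) and Gm42559 for Atg7 (0.904), among 13231 genes.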

How the data were processed

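RNA-seq of soma and neurite fractions was quantified by the authors with Salmon after trimming with cutadapt, and per the study's methods against mouse GENCODE version 17 (mm10). The deposited tables give estimated counts and TPM per transcript, and the versions of these tools are not given in the sources used here. Transcripts were summed to genes by name with GENCODE vM21 (GRCm38), and at most 0.129% of counts had no gene. Estimated counts were rounded and fitted with edgeR 4.0.16 quasi-likelihood (R 4.3.3, TMM factors, filterByExpr, 4 groups of an experiment per fit, 8 for line differences), with Benjamini-Hochberg adjustment over all genes tested and calls below 0.01. Depth ran from 9783050 to 32895542 counts. Only the LR change was also run on simulated counts. These held no difference between groups other than the planted one, so the run checks the code and not the calls reported here. Alternatives were DESeq2 1.42.0, RLE factors, other filters, an adjusted p below 0.05, length-scaled counts, replicate blocks, and each replicate number left out.

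All members were named. From each pathway list, up to 2 called genes per direction and comparison with the largest change could be named. Examples of these are given, and the others, 1 of which is not reported here by name, enter the counts only. The members and lists were chosen with earlier results of these data known. Motifs were counted in vM21 3′ UTRs of transcripts present in the deposited tables. The reporter, binding, RNA stability and human motor neuron data of the series were not analysed here.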

Additional observations from a re-analysis of the deposited data

Results flagged for a closer look

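The response of Sqstm1 in neurites differed between the lines by the interaction test, at 0.56 ± 0.14 on the log2 scale (CAD minus N2A, adjusted p = 0.00871). It rose by 0.44 in CAD neurites and differed by -0.17 in N2A neurites, where its wild-type level was 1463 ± 87.3 CPM (SD, n = 3) against 640 ± 26.0 CPM in CAD. It was 0.47 to 0.70 with each replicate number left out, and the call was lost without replicate 1 (adjusted p = 0.0446) or 2 (0.293). By edgeR as reported it was the 1 member that passed such a test, whereas DESeq2 also called Tbk1, Grn and Vcp in soma and Tbk1 in neurites. How many of all genes DESeq2 called there is not given here. What lies behind the Sqstm1 difference was not tested.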

How the results depend on the processing

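Over the alternatives, 695 of 764 recomputed member values kept their direction and side of the threshold, 24 lost a call, 39 gained one and 6 reversed. The reversals were Grn in the CAD LR change without replicate 3 (-0.13, against 0.26 without replicate 1), Tbk1 in wild-type N2A LR with DESeq2 (-0.000305), RLE factors (-0.00037), at least 10 counts in every library (-0.18) and length-scaled counts (-0.54), and Sqstm1 in the transgene LR with length-scaled counts (-0.0096). None was called in the fit as reported, and the cause was not tested. The number of members called moved at an adjusted p below 0.05 from 0 to 1 in the CAD LR change, 2 to 4 in N2A soma, 3 to 5 in N2A neurites and 2 to 4 in the transgene LR. With DESeq2 it moved from 0 to 1 in the N2A LR change, 3 to 5 in N2A neurites, 0 to 3 in the soma and 1 to 2 in the neurite line difference. N2A neurites had 5 with at least 10 counts in every library and 1 with length-scaled counts, and the soma line difference had 1 with RLE factors. The numbers of all genes called under the same settings are given below for only some of these.

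With each replicate number left out of every group, members called ranged from 3 to 5 in CAD soma, 3 to 4 in CAD neurites, 1 to 2 in CAD LR, 0 to 2 in N2A soma, 2 to 3 in N2A neurites, 5 to 6 in N2A LR, 1 to 2 in the transgene LR, 0 to 1 in the soma and 0 to 1 in the neurite line difference, and were 0 in the LR changes and Q331K comparisons. Over all genes, calls fell from 3953 to 1830 in CAD soma, 4385 to 2084 in CAD neurites, 7172 to 4256 in CAD LR, 2877 to 511 in N2A soma, 2074 to 437 in N2A neurites, 10598 to 6850 in N2A LR, 2070 to 240 in the soma and 1808 to 430 in the neurite line difference without replicate 2, and in the transgene LR from 3837 to 1769 without replicate 1 and 1750 without replicate 2. Calls in the N2A LR change were 18, against 1653 with DESeq2, 923 with no filter, 132 with at least 10 counts, 42 with the replicate block and 1515 below 0.05. In the CAD LR change they were 75, against 224 with DESeq2, 280 with no filter and 170 below 0.05, and in the LR line difference 40, against 292 with DESeq2. Without replicate 2 these 3 LR comparisons had 18 (CAD), 3 (N2A) and 2 (line difference) calls. With no filter the Q331K comparisons had 53 calls in LR, 141 in soma and 103 in neurites, against 0. At 0.05, N2A soma had 5255 and N2A neurites 3769.

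Same-numbered soma and neurite libraries of a genotype did not deviate together in every pair (r of -0.16 to 0.22 in CAD, -0.05 to 0.14 in N2A and -0.09 to 0.17 in transgene cells), and those of one compartment across genotypes gave r of up to 0.41 in CAD, 0.05 to 0.49 in N2A and -0.02 to 0.18 in transgene cells, not above 0.1 in every pair, so the numbers were not taken as pairs. Across genotypes in one compartment, the median r was 0.07, 0.09 and 0.08 for same numbers in CAD, N2A and transgene cells. For different numbers it was -0.06, -0.06 and -0.01. Whether libraries of the same number shared a batch was not tested. With the number as a replicate block, 5 members were called in CAD soma, 5 in CAD neurites, 3 in N2A soma, 7 in N2A LR and 1 in the soma line difference, with Ubqln2 the added call in CAD neurites (-0.25), N2A soma (0.36), N2A LR (0.31) and the line difference (-0.53). Of 17343 genes the block called 4345 in CAD soma and 4696 in CAD neurites, against 3953 and 4385 without it. Such numbers are not given here for N2A soma, N2A LR and the soma line difference. Depth limits Atg7 most, at 5.18 to 14.8 CPM.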
